A study of Mus musculus with 54 samples.

Results

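Pcdh10, Slc38a11, Ccdc114, Zkscan2, Cfap69 and Traf3 are 6 of the 16772 genes measured by RNA sequencing in mouse prostate tumours, and they stand apart in castrated tumours of the model called DKO. They were chosen from the same expression values: castrated DKO differed in them from castrated DKO_EE, DKO_EP or TKO tumours, or the difference between genotypes was not the same in castrated and intact mice. Those differences are therefore given as descriptions, with no test. The mice carry engineered prostate tumour models named DKO and TKO, and DKO_EE and DKO_EP are DKO mice with Ezh2 deletions. The labels do not spell out which genes are lost in DKO and TKO, what EE and EP stand for, or which promoter drives a Cre. Intact mice were sampled at 12 weeks of age (4 DKO, 4 DKO_EE and 4 DKO_EP animals) and at endstage (3 DKO at 35 to 46 weeks, 8 DKO_EE at 28 to 42 weeks and 3 DKO_EP at 39 to 52 weeks). Endstage tumours also came from mice castrated when 12 weeks old: 4 DKO at 39 to 99 weeks, 5 DKO_EE at 35 to 59 weeks and 5 DKO_EP at 34 to 37 weeks. Castrated TKO mice of 15 to 19 weeks received vehicle (4 animals) or the Ezh2 inhibitor CPI1688 (4 animals). The animal was the replicate, and 6 intact endstage animals had 2 pieces each, which were averaged. Levels are log2 of a normalized count plus 1, so a gene with no read stands at 0.

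Some facts of the libraries touch what follows. Each library held 3687048 to 9741808 reads, and 1 read was worth 0.79 to 1.99 on the log2 scale, so levels below about that size rest on single reads. Ezh2 RNA, measured as a check of the labels, was 9.36 ± 0.62 in castrated DKO (SD, n = 4), 8.46 ± 0.47 in castrated DKO_EE (SD, n = 5) and 9.17 ± 0.33 in castrated DKO_EP (SD, n = 5), and the DKO_EE difference of -0.90 missed the threshold (SE 0.30, limma adjusted p = 0.0831). As a share of reads, Ezh2 was 0.0113%, 0.0041%, 0.0116% and 0.0117% in castrated DKO animals 1 to 4 and 0.0036% to 0.008% in castrated DKO_EE. The 4 castrated DKO animals were 39, 99, 84 and 50 weeks old, and their identifiers begin with letters that no other group has, so what those letters stand for and the group cannot be told apart. Markers of neuroendocrine cells were summed per animal. Castrated DKO animals 1, 3 and 4 had 14.41, 14.32 and 14.62, toward the low end of the 14.32 to 15.22 of castrated DKO_EE. These sums were below the 14.75 to 15.07 of castrated DKO_EP. Castrated DKO animal 2 had 8.68 with 4 of the 12 markers at 0. TKO vehicle animal 1 had 10.78 against 13.90 to 15.09 in the other TKO vehicle animals. Lars2 took 14.2% to 21.6% of the reads in intact DKO_EP, 0.0085% to 35.3% in intact DKO_EE and at most 0.0258% in any intact or castrated DKO library. In castrated DKO_EP it took at most 0.0048%, and in castrated DKO_EE at most 0.0044%.

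The 6 genes have unlike roles. Pcdh10 encodes a protocadherin, a membrane protein through which like cells of the nervous system adhere, and Slc38a11 encodes a little-studied member of the SLC38 amino acid transporters. Ccdc114 docks the outer dynein arms that make motile cilia beat, and Cfap69 is a protein of cilia and of the sperm tail. Zkscan2 is a DNA-binding zinc finger protein with a SCAN and a KRAB domain. Traf3 is the adaptor that keeps the kinase NIK (Map3k14) low and so restrains non-canonical NF-kB signalling, the route that runs through Nfkb2 and Relb downstream of receptors such as Cd40. Ezh2 is the enzyme of the Polycomb group that methylates histone H3, a mark that silences developmental genes and in vertebrates lies above all at promoters rich in CpG. Neuroendocrine prostate cancer is a form that loses its dependence on androgen and expresses neuronal genes.

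Promoters of 3 of the genes are shown because they mark the extremes of the pattern: Pcdh10 and Slc38a11, the pair that moved together most closely, and Traf3, which went the other way. Each run is the 250 bases before the RefSeq start, 5′ to 3′ on the strand of the gene (build GRCm38.p6), with every CpG, the dinucleotide CG, in capitals. Pcdh10 lies on the plus strand at chr3:45378148-45378397, Slc38a11 on the minus strand at chr2:65364027-65364276 and Traf3 on the plus strand at chr12:111166120-111166369.
Pcdh10: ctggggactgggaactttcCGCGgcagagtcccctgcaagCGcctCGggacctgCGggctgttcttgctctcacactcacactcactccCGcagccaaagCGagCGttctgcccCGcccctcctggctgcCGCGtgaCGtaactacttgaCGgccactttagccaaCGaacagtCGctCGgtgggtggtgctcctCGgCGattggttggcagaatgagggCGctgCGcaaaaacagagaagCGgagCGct
Slc38a11: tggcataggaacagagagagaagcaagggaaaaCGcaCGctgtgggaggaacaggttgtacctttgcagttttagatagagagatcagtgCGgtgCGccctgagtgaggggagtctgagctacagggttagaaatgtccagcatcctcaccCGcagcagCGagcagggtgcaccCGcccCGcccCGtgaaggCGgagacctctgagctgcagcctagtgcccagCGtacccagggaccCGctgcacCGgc
Traf3: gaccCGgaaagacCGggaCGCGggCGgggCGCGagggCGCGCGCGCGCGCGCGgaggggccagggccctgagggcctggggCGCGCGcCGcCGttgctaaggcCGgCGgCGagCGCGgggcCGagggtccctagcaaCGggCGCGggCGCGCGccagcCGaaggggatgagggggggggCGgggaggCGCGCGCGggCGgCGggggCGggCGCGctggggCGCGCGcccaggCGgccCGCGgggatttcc

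The Traf3 window holds 49 CpG, a number that 0.146% of 32851 RefSeq promoters of the same length reach. Pcdh10 has 22, reached by 14.8% of promoters, and Zkscan2 has 20, reached by 17.9%. Slc38a11 has 13, Cfap69 has 10 and Ccdc114 has 9, numbers that 31.5%, 37.8% and 40.3% of promoters reach. The 5 genes that were low in castrated DKO thus span CpG-rich and ordinary promoters, and this is a description of the sequence only. The start of a non-coding gene on the opposite strand, 2610316D01Rik, lies 138 bases from the start of Pcdh10 and so inside the Pcdh10 run shown.

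Pcdh10 (chromosome 3, 45378398 to 45435623, GRCm38) was at or near the level of single reads in castrated DKO and abundant in most other castrated tumours. Castrated DKO animals 1 to 4 stood at 3.09, 0, 0 and 2.93, which is 0 to 6 reads. Castrated DKO_EE animals stood at 11.01, 10.28, 10.36, 10.72 and 10.51, or 1046 to 2055 reads. The DKO_EE animals were close to each other and far above every castrated DKO animal. Castrated DKO_EP ran from 2.71 to 10.60, with 2.71 in animal 1, 10.60 in animal 2, 8.70 in animal 3, 6.91 in animal 4 and 6.62 in animal 5. Animal 1 of DKO_EP thus overlapped castrated DKO while the other 4 did not. TKO vehicle animals stood at 6.20, 9.88, 10.72 and 11.04, and CPI1688 animals at 10.78, 10.79, 6.07 and 10.71. In both TKO arms 1 animal was well below the rest, and none reached down to castrated DKO.

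Intact DKO tumours did not share the low level as a group. Their 3 animals had Pcdh10 at 9.29, 6.52 and 2.19, and the lowest of them overlapped castrated DKO. Intact DKO_EE had a lowest value of 6.54, a median of 9.73 and a highest of 10.70, and intact DKO_EP had 6.02, 4.84 and 1.52. At 12 weeks Pcdh10 was low in every genotype: DKO at 3.59, 4.99, 4.47 and 2.50, DKO_EE at 1.63, 2.07, 5.44 and 2.95, and DKO_EP at 0, 3.39, 1.64 and 1.02. Castrated DKO (mean 1.51 ± 1.74, SD, n = 4) therefore sat beside the youngest DKO_EP tissue (1.51 ± 1.42, SD, n = 4) at the bottom of the order, and castrated DKO_EE (10.58 ± 0.30, SD, n = 5) at the top.

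Slc38a11 (chromosome 2, 65316430 to 65364034) was, of the 6, the gene whose castrated DKO values lay clear of the most groups, which is a description only. Castrated DKO animals stood at 2.25, 0, 1.28 and 2.71, or 0 to 5 reads. Castrated DKO_EE stood at 8.14, 9.07, 9.69, 7.69 and 9.42, and castrated DKO_EP at 6.30, 5.45, 6.69, 7.57 and 5.88. Every castrated DKO_EE and DKO_EP animal was above every castrated DKO animal, and DKO_EP lay between the other 2 genotypes. TKO vehicle animals stood at 4.10, 6.84, 10.26 and 9.30 and CPI1688 animals at 9.94, 9.64, 8.19 and 6.80, again with no overlap. Intact DKO, by contrast, had 8.69, 4.20 and 8.35, intact DKO_EP 6.58, 6.16 and 2.73, and intact DKO_EE a lowest of 8.67, a median of 9.25 and a highest of 9.90. The intact DKO_EP animal at 2.73 was barely above the highest castrated DKO animal at 2.71. At 12 weeks DKO averaged 4.40 ± 1.68, DKO_EE 4.40 ± 0.87 and DKO_EP 3.08 ± 1.0 (n = 4 each, SD), all above the castrated DKO mean of 1.56 ± 1.20 (SD, n = 4), although the DKO and DKO_EP ranges overlapped it.

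**Figure D1:**
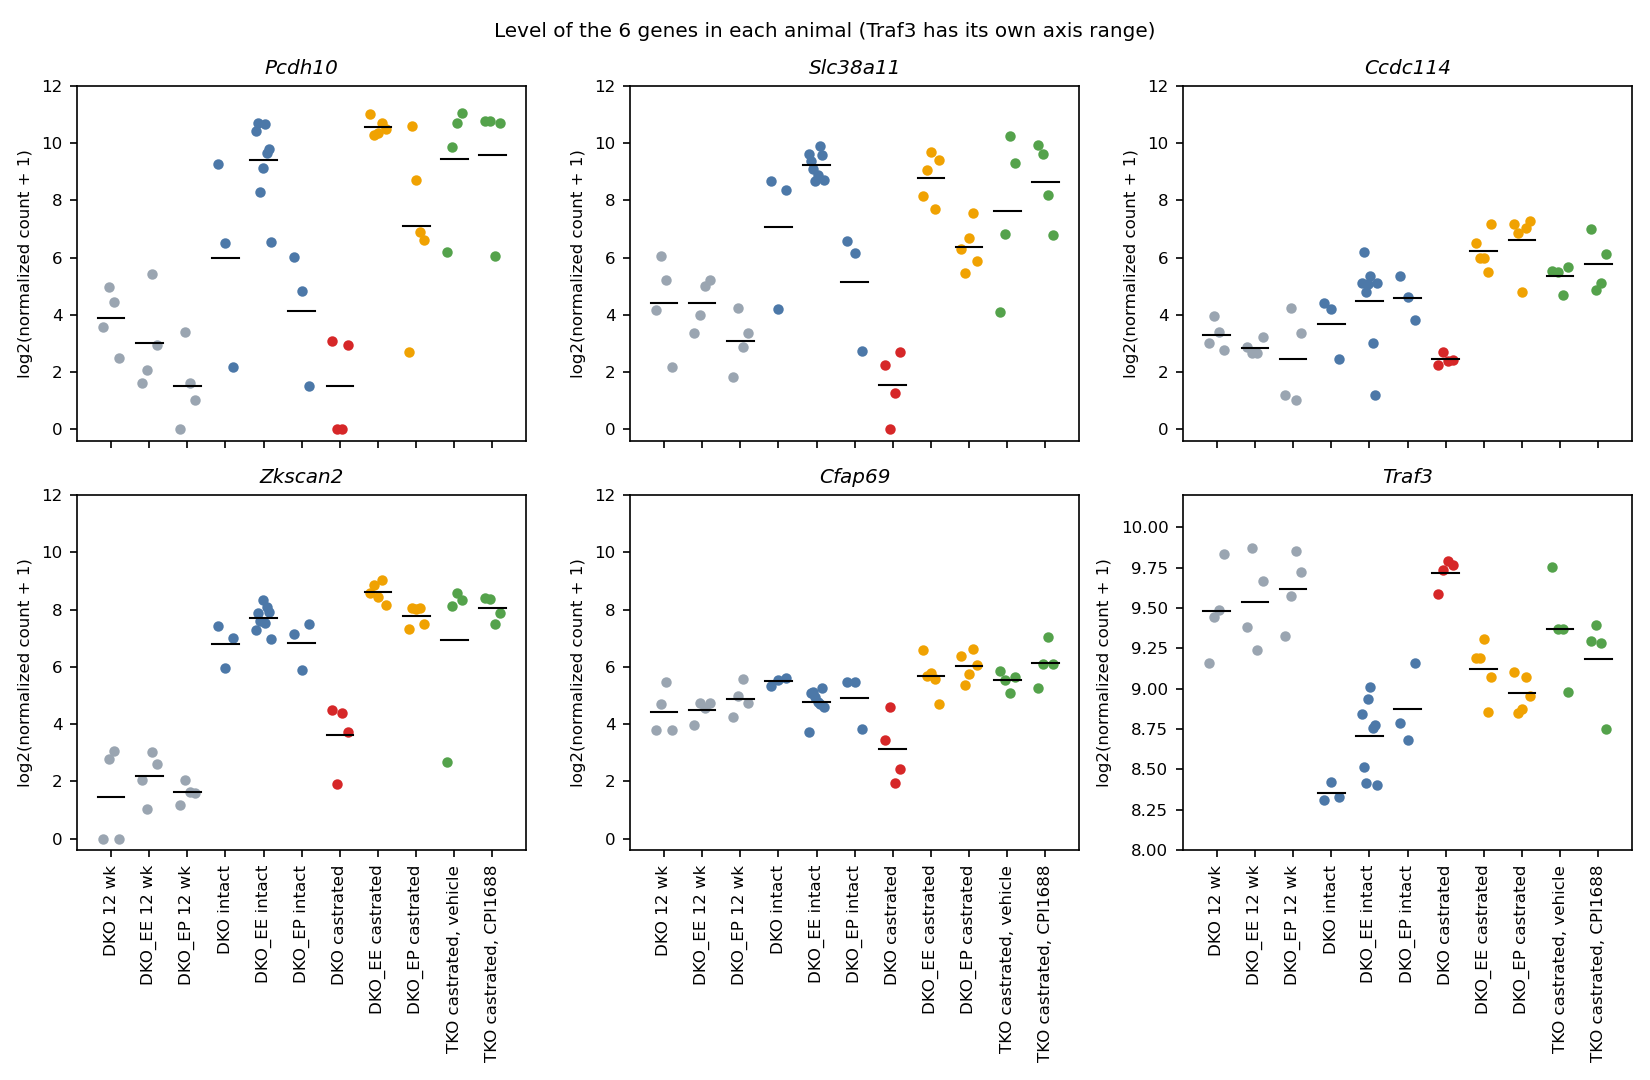
Level of each of the 6 genes, as log2(normalized count + 1), in every animal (points) of the 11 groups, with the group mean (line); castrated DKO is in red, and Traf3 has its own axis range. Castrated DKO is at the bottom for Pcdh10, Slc38a11, Ccdc114 and Cfap69, low for Zkscan2 (mean 3.63, above the 12-week groups), and at the top for Traf3 (mean 9.72).

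Ccdc114 (chromosome 7, 45924072 to 45948963) rested on few reads in castrated DKO but was even across its animals. The 4 animals stood at 2.25, 2.70, 2.41 and 2.44, which is 3 to 4 reads each. Castrated DKO_EE stood at 6.5, 6.0, 5.99, 5.51 and 7.19, and castrated DKO_EP at 7.19, 6.87, 4.79, 7.04 and 7.28. TKO vehicle animals stood at 5.55, 5.49, 4.70 and 5.68, and CPI1688 animals at 7.01, 4.86, 5.12 and 6.12. Every one of these animals was above castrated DKO. Intact tumours reached lower: DKO had 4.43, 4.20 and 2.45 and DKO_EE ran from 1.22 to 6.21, both overlapping castrated DKO, while DKO_EP ran from 3.82 to 5.36. The 12-week means, 3.29 ± 0.52 for DKO, 2.86 ± 0.27 for DKO_EE and 2.46 ± 1.59 for DKO_EP (n = 4 each, SD), were the nearest to castrated DKO.

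Cfap69 (chromosome 5, 5579278 to 5664239), the other cilium gene, was also low in castrated DKO. Castrated DKO animals stood at 3.46, 4.61, 1.95 and 2.44, and the highest of them was the 99-week animal with the low neuroendocrine sum. Castrated DKO_EE stood at 6.59, 5.70, 5.79, 5.59 and 4.71, castrated DKO_EP at 6.39, 5.37, 5.77, 6.62 and 6.07, and intact DKO at 5.33, 5.55 and 5.62. None of these 3 groups overlapped castrated DKO, with 4.61 against 4.71 the nearest pair. TKO vehicle ran from 5.09 to 5.85 and CPI1688 from 5.27 to 7.06. Intact DKO_EE and DKO_EP, with lowest values of 3.74 and 3.82, and all 3 genotypes at 12 weeks overlapped it.

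Zkscan2 (chromosome 7, 123475384 to 123500449) differed from the 4 genes above in that castrated DKO was not its lowest group. At 12 weeks the gene was near the level of single reads: DKO had 0, 2.78, 3.07 and 0, DKO_EE ran from 1.05 to 3.04 and DKO_EP from 1.19 to 2.06. Intact endstage tumours were far higher, with DKO at 7.43, 5.96 and 7.01, DKO_EE from 6.99 to 8.36 and DKO_EP from 5.91 to 7.48. Castrated DKO animals stood at 4.48, 1.91, 4.40 and 3.72, between the young and the intact endstage levels, and the 99-week animal at 1.91 was within the 12-week range. Castrated DKO_EE stood at 8.59, 8.88, 8.46, 9.04 and 8.16, and castrated DKO_EP at 7.31, 8.04, 8.02, 8.07 and 7.51. TKO vehicle animals stood at 2.67, 8.13, 8.60 and 8.34, the low one being the animal with the low neuroendocrine sum, and CPI1688 animals ran from 7.49 to 8.40. Without that TKO animal the vehicle group would not overlap castrated DKO. In the order of the 11 group means, intact DKO (6.80 ± 0.75, SD, n = 3) and castrated DKO (3.63 ± 1.20, SD, n = 4) were the only neighbours, over all 6 genes, whose animals did not overlap.

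Traf3 (chromosome 12, 111166370 to 111267153) was the gene that was high, not low, in castrated DKO. It was well covered, with 612 to 785 reads in those animals, which stood at 9.59, 9.73, 9.79 and 9.77. Castrated DKO_EE stood at 9.19, 9.19, 9.31, 8.86 and 9.08, and castrated DKO_EP at 9.11, 8.85, 8.87, 9.07 and 8.96. Every one of them was below all 4 castrated DKO animals, and the group means differed by 0.60 and 0.75. The intact endstage groups were lower again, with DKO at 8.31, 8.42 and 8.33, DKO_EE from 8.41 to 9.01 and DKO_EP from 8.68 to 9.16. Castrated DKO was thus at the level of 12-week tissue, where DKO averaged 9.48 ± 0.28, DKO_EE 9.54 ± 0.28 and DKO_EP 9.62 ± 0.23 (n = 4 each, SD). TKO vehicle animals, at 9.75, 9.37, 9.37 and 8.98, overlapped castrated DKO through the first of them, and CPI1688 animals, at 9.30, 9.40, 9.28 and 8.75, did not.

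Set against each of the 10 other groups, castrated DKO did not overlap 8 for Slc38a11, 6 each for Ccdc114, Zkscan2 and Traf3, 5 for Cfap69 and 4 for Pcdh10. Some of these gaps are no wider than single reads. For Slc38a11 the lowest intact DKO_EP animal stood at 2.73 (3 reads) and the highest castrated DKO animal at 2.71 (5 reads). For Ccdc114 the lowest 12-week DKO animal stood at 2.77 (5 reads) and the highest castrated DKO animal at 2.70 (4 reads). Such separation was common among all genes for some groups and rare for others. Of the 16772 genes, 10.4% did not overlap between castrated DKO and castrated DKO_EE, 4.72% for castrated DKO_EP, 2.41% for TKO vehicle and 7.14% for CPI1688. The share was 22.5% for intact DKO, 10.7% for intact DKO_EE and 22.9% for intact DKO_EP, and 23.1%, 17.8% and 16.1% for DKO, DKO_EE and DKO_EP at 12 weeks. Nothing is read from the counts for the 6 genes, since castrated DKO, the reference in all 10, chose the genes. The castrated DKO_EE, DKO_EP and TKO vehicle groups and the intact endstage groups entered the choice as well.

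The differences between castrated groups, from limma fits over all genes, are listed here as the values that chose the members. DKO_EE minus DKO was 9.07 (SE 1.22) for Pcdh10, 7.24 (SE 0.60) for Slc38a11, 5.0 (SE 0.44) for Zkscan2, 3.79 (SE 0.49) for Ccdc114, 2.56 (SE 0.52) for Cfap69 and -0.60 (SE 0.11) for Traf3. DKO_EP minus DKO, which shares the DKO animals, was 5.60 (SE 1.22) for Pcdh10, 4.82 (SE 0.60) for Slc38a11, 4.16 (SE 0.44) for Zkscan2, 4.19 (SE 0.49) for Ccdc114, 2.93 (SE 0.52) for Cfap69 and -0.75 (SE 0.11) for Traf3. TKO vehicle minus DKO, which shares them too, was 7.95 (SE 1.35), 6.06 (SE 0.98), 3.31 (SE 0.76), 2.90 (SE 0.72), 2.42 (SE 0.46) and -0.35 (SE 0.16) in the same order of genes. As mean normalized counts, Pcdh10 was 3.54 in castrated DKO and 1554 in castrated DKO_EE, and Slc38a11 was 2.69 and 506.5. Traf3 was 843.4 in castrated DKO against 560.2 and 502.2 in DKO_EE and DKO_EP.

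All 6 genes met an adjusted p under 0.05 for DKO_EE against DKO, where 7.72% of all genes did. For DKO_EP the 4 that met it were Slc38a11, Ccdc114, Zkscan2 and Traf3, where 0.0302% of all genes did, and for TKO vehicle all but Traf3 did, where 0.566% of all genes did. The castration dependence of the DKO_EE effect met it for Cfap69 only (0.0119% of all genes), and that of the DKO_EP effect for Cfap69 and Traf3 (0.0238% of all genes). These counts restate the choice. With age as a covariate every difference kept its sign, but the TKO vehicle differences shrank most: Pcdh10 from 7.95 to 5.24, Slc38a11 from 6.06 to 3.90, Zkscan2 from 3.31 to 2.02 and Traf3 from -0.35 to -0.13. Neither castrated TKO vehicle (15 to 19 weeks) nor castrated DKO_EP (34 to 37 weeks) overlaps castrated DKO (39 to 99 weeks) in age. The fit therefore extrapolates in both comparisons, and genotype and age cannot be told apart there.

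**Figure D2:**
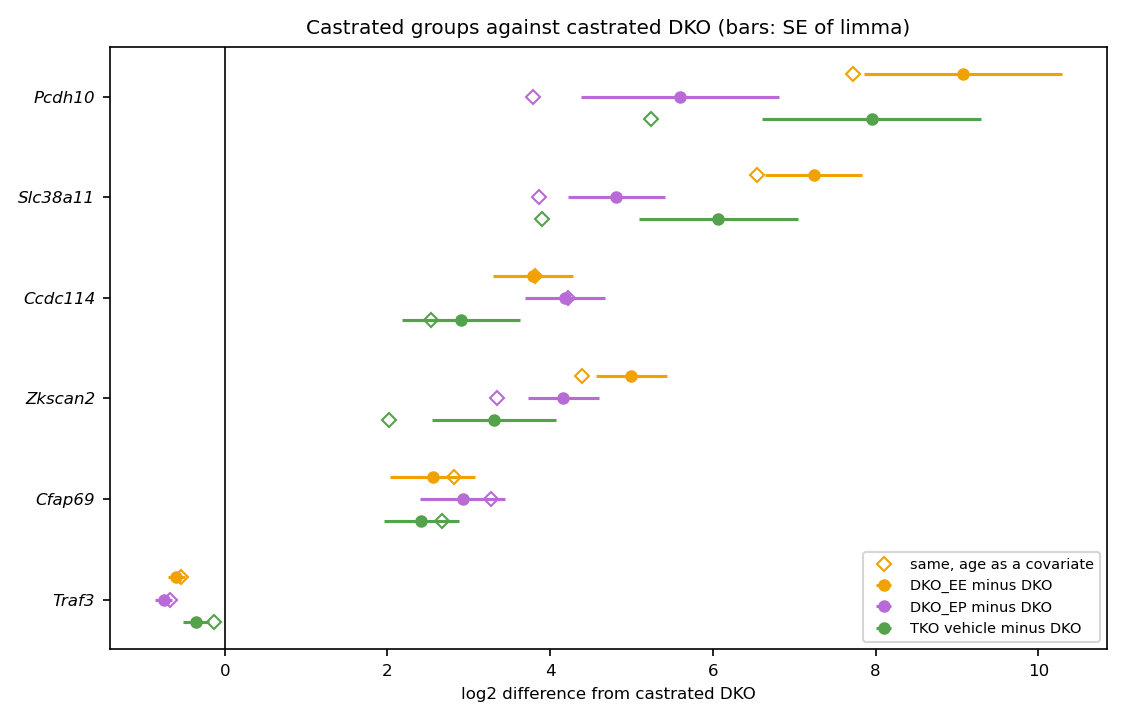
Log2 difference of castrated DKO_EE, DKO_EP and TKO vehicle tumours from castrated DKO for the 6 genes (filled points, with bars for the SE of limma) and the same difference with age as a covariate (open diamonds). Pcdh10 has the widest bars (SE 1.22 to 1.35), Traf3 alone lies below 0, and the diamonds stay on the same side of 0 as the points.

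Group means of castrated and intact tumours differed in opposite directions in DKO and in the Ezh2-deleted genotypes for most of the 6 genes. Castrated minus intact endstage DKO was -5.52 (SE 1.06) for Slc38a11, -4.49 (SE 1.45) for Pcdh10, -3.17 (SE 0.82) for Zkscan2, -2.38 (SE 0.50) for Cfap69, -1.24 (SE 0.78) for Ccdc114 and 1.37 (SE 0.17) for Traf3. In DKO_EP the group means of all 6 genes were higher in castrated than in intact tumours, for example 7.11 ± 2.93 (SD, n = 5) against 4.13 ± 2.33 (SD, n = 3) for Pcdh10 and 6.64 ± 1.04 (SD, n = 5) against 4.60 ± 0.77 (SD, n = 3) for Ccdc114. In DKO_EE they were higher for all but Slc38a11, which was 8.80 ± 0.85 castrated (SD, n = 5) and 9.23 ± 0.45 intact (SD, n = 8). The mean of Traf3 was higher in castrated than in intact tumours of all 3 genotypes, 9.72 against 8.35 in DKO, 9.12 against 8.71 in DKO_EE and 8.97 against 8.88 in DKO_EP. The difference of DKO_EE from DKO, castrated minus intact, was 5.66 (SE 1.81) for Pcdh10, 5.09 (SE 1.32) for Slc38a11, 4.08 (SE 1.03) for Zkscan2, 3.28 (SE 0.63) for Cfap69, 2.99 (SE 0.97) for Ccdc114 and -0.95 (SE 0.22) for Traf3. For DKO_EP it was 7.47 (SE 2.01), 6.74 (SE 1.46), 4.11 (SE 1.14), 3.51 (SE 0.69), 3.27 (SE 1.08) and -1.27 (SE 0.24). Lars2 took 14.2% to 21.6% of the reads in intact DKO_EP and at most 0.0048% in castrated DKO_EP. Castration and this library difference therefore cannot be told apart in the DKO_EP values. In DKO_EE the Lars2 share was 0.0085% to 35.3% intact and at most 0.0044% castrated. Castrated and intact DKO also differed in age (39 to 99 against 35 to 46 weeks), in identifier letters and in piece labels, which castrated libraries lack. Castration and these differences cannot be fully told apart. Castrated and intact DKO_EE and DKO_EP were compared by group means only.

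Comparisons that the choice of genes did not use showed no call. At 12 weeks none of the 6 genes differed between genotypes at an adjusted p under 0.05, and 0.0% of all genes did in any of the 3 pairs, with 796 of 16626 genes at an unadjusted p under 0.05 for DKO_EE against DKO, 449 for DKO_EP against DKO and 593 for DKO_EE against DKO_EP. Fits of limma-voom to the recovered reads also called 0 genes in these pairs. Markers of tissue other than prostate were uneven in the 12-week libraries. Summed skeletal muscle markers were 13.32 to 18.0 in DKO, 6.96 to 10.55 in DKO_EE and 7.83 to 17.98 in DKO_EP. Summed seminal vesicle markers were 6.97 to 13.62, 2.64 to 17.13 and 1.04 to 19.41 in the same order. The part of such tissue in the 12-week levels and comparisons was not tested. The member with the smallest p was Pcdh10 in DKO_EP against DKO, at -2.37 (SE 0.93), unadjusted p = 0.0253 and limma adjusted p = 0.991. Slc38a11 in the same pair was -1.33 (SE 0.81, limma adjusted p = 0.991). Zkscan2 differed by 0.72 (SE 0.74, limma adjusted p = 0.975) between DKO_EE and DKO, and Traf3 by 0.06 (SE 0.18, limma adjusted p = 0.988). The standard errors of Pcdh10, Slc38a11 and Zkscan2, 0.74 to 0.93, leave room for differences of several log2 units at this age, and those of Traf3 do not.

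CPI1688 was compared with vehicle in castrated TKO mice, whose vehicle animals had helped to choose the genes. No member was called, and 0.0% of all genes were, with 337 of 16512 at an unadjusted p under 0.05 and 0 calls by limma-voom. Zkscan2 was higher by 1.11 (SE 1.24), Slc38a11 by 1.02 (SE 1.34), Cfap69 by 0.61 (SE 0.43), Ccdc114 by 0.42 (SE 0.54) and Pcdh10 by 0.13 (SE 1.38), and Traf3 was lower, at -0.19 (SE 0.21), each with limma adjusted p = 1.0. Without vehicle animal 1 the values of Zkscan2, Slc38a11 and Pcdh10 changed sign, to -0.31, -0.16 and -0.96. The SE exceeded the difference for every member but Cfap69.

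Pieces of the same intact tumour could differ widely in some of these genes. In both DKO_EP animals with 2 pieces, the piece labelled AP was higher than the other one: Pcdh10 was 8.38 against 3.66 and 6.43 against 3.25, and Slc38a11 was 8.67 against 4.48 and 7.71 against 4.61. In DKO_EE the AP piece of 1 animal had Pcdh10 at 3.88 and its other piece 9.20, the opposite direction. Lars2 took 19.0% of the reads of that AP piece and 0.0085% of its partner, so piece and this library difference cannot be told apart there. Another DKO_EE animal had Lars2 at 18.7% in its DP piece and 0.53% in its AP piece. The paired DKO_EP pieces all had 16.7% to 21.6%. Over the 5 animals with such a pair, AP minus the piece holding DP was 0.77 (SE 1.29, limma adjusted p = 0.999) for Pcdh10 and 1.45 (SE 0.74, limma adjusted p = 0.999) for Slc38a11. Zkscan2 had the smallest p, at 0.75 (SE 0.25), unadjusted p = 0.0205 and limma adjusted p = 0.999. No gene of 16468 was called by limma (0.0%), and 449 had an unadjusted p under 0.05. Castrated animals were sampled as 1 library each, so the spread between pieces of a castrated tumour is not known.

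Genes that work with Traf3 were read next. Of 22 other TRAF adaptors and genes of non-canonical NF-kB signalling, 6 fell and 1 rose in DKO_EE, with a median difference of -0.60 against -0.0035 over all genes (3.42% of all genes were called higher and 4.3% lower). Traf3ip3, which encodes a partner of Traf3, was lower, at -2.39 (SE 0.47, limma adjusted p = 0.0110), and Relb, the transcription factor of the non-canonical route, stood at -2.03 (SE 0.44, limma adjusted p = 0.0171). Its partner Nfkb2 stood at -1.57 (SE 0.39, limma adjusted p = 0.0278), and the receptor gene Tnfrsf12a at -2.05 (SE 0.47, limma adjusted p = 0.0196). The other 2 that fell were Cd40, at -1.99, and Traf2, the adaptor that acts with Traf3, at -0.53. The gene that rose was Tnfrsf11a, the receptor RANK, by 1.27 (SE 0.18, limma adjusted p = 0.00161). Map3k14, the kinase that Traf3 keeps low, was at -1.54 (SE 0.44, limma adjusted p = 0.0505) and Birc3 at -1.47 (SE 0.45, limma adjusted p = 0.0660), both just past the threshold on the uncalled side, and Birc2 was at -0.14 (SE 0.12, limma adjusted p = 0.490).

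Of 15 genes of the canonical NF-kB route, 4 fell in castrated DKO_EE and none rose, with a median of -0.44, beside 4.3% of all genes called lower. Tnfaip3 and Nfkbia, inhibitors that NF-kB itself induces, fell, to differences of -1.46 (SE 0.31, limma adjusted p = 0.0158) and -1.52 (SE 0.37, limma adjusted p = 0.0263), and Nfkbie and Rela stood at -1.13 and -0.40. Markers of some stromal and immune cells moved with both NF-kB lists in this comparison. Of these, 5 of 8 fibroblast markers were called lower (median -2.43) and 2 of 6 T and NK cell markers (median -1.98). The median of 5 B and plasma cell markers was -2.19, with 0 called. Macrophage markers had 0 of 6 called (median -0.36), and endothelial markers 0 of 5 (median -0.75). The summed fibroblast level was 14.15 to 15.35 in castrated DKO and 12.53 to 13.80 in castrated DKO_EE, the summed T and NK cell level 4.58 to 7.09 and 3.83 to 6.14, and the summed B and plasma cell level 4.30 to 8.54 and 2.59 to 7.44. Their part in the NF-kB counts was not tested. In castrated DKO_EP the medians were -0.57 for the TRAF list and -0.97 for the canonical list, and in TKO vehicle -0.39 and -0.39, with 0 genes called by limma or limma-voom. At an unadjusted p under 0.05 those comparisons had 10 of 22 and 8 of 15 genes in DKO_EP and 2 of 22 and 1 of 15 in TKO vehicle. These calls were lost in part with other choices: with age as a covariate 1 TRAF-list gene and no canonical gene was called lower, and without castrated DKO animal 2 the counts were 5 and 2. Leaving out animal 2 also brought the canonical medians to -0.33 in DKO_EP and -0.03 in TKO vehicle, and age as a covariate brought the latter to 0.50. Animal 2, with the low neuroendocrine sum, also had the highest Relb and Nfkb2 of its group, 8.19 and 9.34, and the part of its tissue in these counts was not tested beyond that. Fewer cells of a type and less RNA per cell cannot be told apart in bulk tissue.

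Cilium genes other than Ccdc114 and Cfap69 moved less evenly. Of 45 genes of motile cilia and sperm tails, 6 rose in castrated DKO_EE against DKO and none fell, with a median of 0.78. Of all genes, 3.42% were called higher. Hydin, a protein of the central pair of the axoneme, had no read in any of the 4 castrated DKO animals and 2.37 to 6.40 in castrated DKO_EE (limma adjusted p = 0.0140). The dynein heavy chains Dnah2 and Dnah7b rose by 2.38 (SE 0.58, limma adjusted p = 0.0274) and 1.08 (SE 0.22, limma adjusted p = 0.0136), and Ccno, which acts when multiciliated cells make their centrioles, rose by 2.45 (SE 0.65, limma adjusted p = 0.0367). The other 2 were Cfap57, at 1.95, and Ccdc39, at 1.73. None of 12 other outer dynein arm genes was called by limma or limma-voom (1 at an unadjusted p under 0.05), although their median was 0.77, which was 0.035 without castrated DKO animal 2. The docking partners of Ccdc114 stood at 1.27 (SE 0.67) for Ccdc151, 0.85 (SE 0.65) for Armc4 and 0.68 (SE 0.59) for Ttc25, and Foxj1, the master regulator of motile cilia, at 0.37 (SE 0.52, limma adjusted p = 0.689). Castrated DKO_EP and TKO vehicle had 0 calls in both cilium lists by limma and limma-voom, with 4 and 3 of the 45 genes and 2 and 0 of the 12 at an unadjusted p under 0.05. With age as a covariate no cilium gene was called, and without castrated DKO animal 2 the count was 5 of 45. The summed level of 10 ciliated cell markers was 8.42, 5.88, 9.34 and 8.69 in castrated DKO animals 1 to 4 and 9.18 to 9.98 in castrated DKO_EE. Of those markers 2 were called higher. Foxj1, Mcidas, Ccno, Cfap126, Tekt1 and Rsph1 are also in the list of 45, so the marker count is not a separate observation. The part of ciliated cells in the Ccdc114 and Cfap69 values was not tested.

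**Figure D3:**
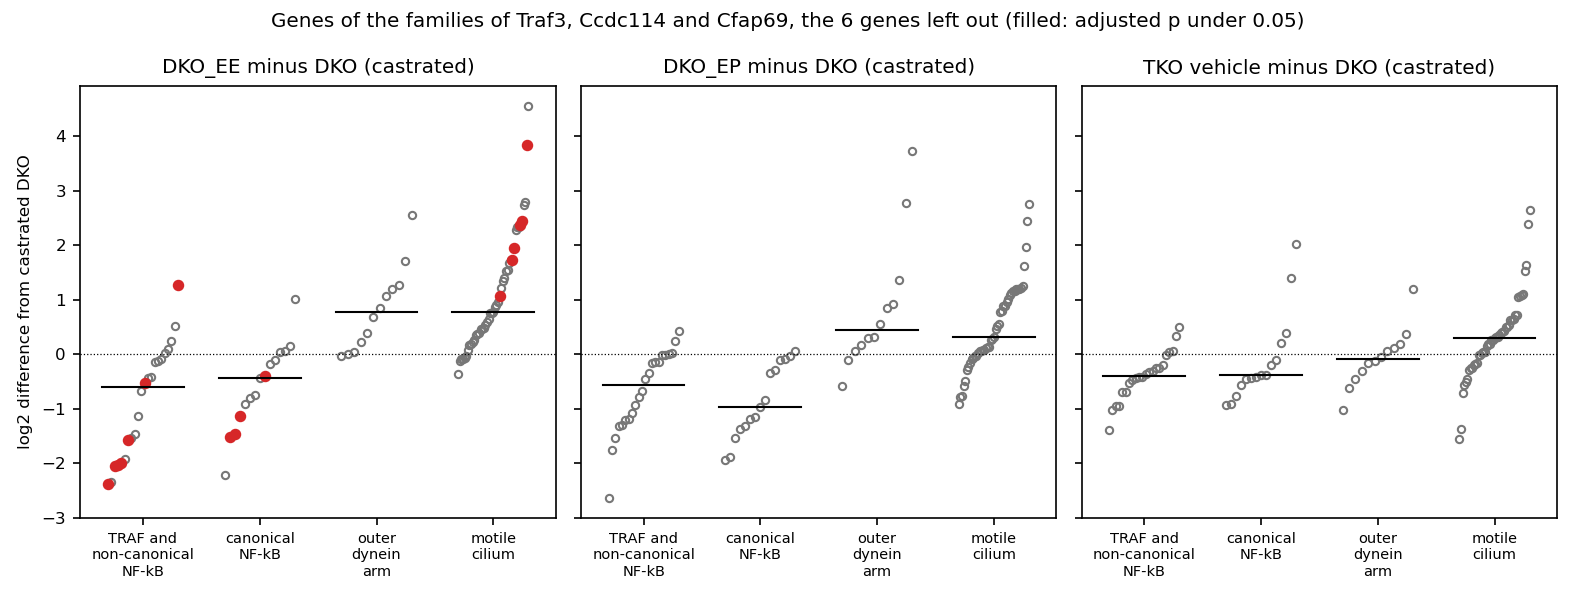
Log2 difference from castrated DKO of each gene in 4 families (points), for castrated DKO_EE, DKO_EP and TKO vehicle, with the 6 genes left out, the median as a line and filled points at a limma adjusted p under 0.05. Both NF-kB lists lie mostly below 0 in each panel and the motile cilium list mostly above, but all the called genes are in the DKO_EE panel.

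Relatives of the other members mostly did not follow them in castrated DKO_EE against DKO. Of 11 other non-clustered protocadherins, none rose in castrated DKO_EE and 2 fell, Pcdh18 at -2.21 (SE 0.56, limma adjusted p = 0.0305) and Pcdh1 at -1.51 (SE 0.38, limma adjusted p = 0.0310), opposite in sign to Pcdh10. Both calls were lost without castrated DKO animal 2. The closest relatives Pcdh17 and Pcdh19 stood at -1.16 (SE 0.72) and -0.13 (SE 0.66). None of 9 other SLC38 transporters was called by limma or limma-voom (1 at an unadjusted p under 0.05), with a median of 0.0. Slc38a2, the widely expressed member, stood at 0.08 (SE 0.12), and Slc38a1 at 1.32 (SE 0.73). Of 25 other SCAN-domain zinc finger genes, Zkscan16 alone was called, higher by 2.91 (SE 0.83, limma adjusted p = 0.0484), beside 3.42% of all genes called higher. That call was lost in 8 of 15 alternatives: with age as a covariate, without castrated DKO animal 2 or 3, and without any 1 of the 5 DKO_EE animals. In DKO_EP and TKO vehicle 0 genes of these 3 lists were called by limma or limma-voom, with at most 3 per list at an unadjusted p under 0.05. The protocadherin medians there were 0.49 and 1.28, the sign of Pcdh10, beside 0.0 and 0.014 over all genes. Pcdh18 stood at -1.24 and 1.28. The medians were 0.06 and 0.27 for the SLC38 list and 0.04 and 0.0014 for the SCAN-domain list.

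The 5 nearest measured genes on each side of each member were read next. In castrated DKO_EE against DKO 7 of 58 neighbours were called, or 12.1%, against 7.72% of all genes. In TKO vehicle against DKO 4 of 60 were called, or 6.67%, against 0.566% of all genes, and in DKO_EP against DKO 0 of 58, with 14 at an unadjusted p under 0.05 and 0 calls by limma-voom. The TKO count fell to 0 with limma-voom and with age as a covariate. The calls lay around Pcdh10, Slc38a11 and Cfap69, and none was beside Ccdc114, Zkscan2 or Traf3.

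Beside Pcdh10, 2610316D01Rik moved as Pcdh10 did. Its mean was 0.29 ± 0.59 in castrated DKO (SD, n = 4), 6.04 ± 0.20 in castrated DKO_EE (SD, n = 5), 3.22 ± 2.09 in DKO_EP (SD, n = 5) and 4.62 ± 2.01 in TKO vehicle (SD, n = 4). The difference was 5.75 in DKO_EE (SE 0.83, limma adjusted p = 0.00181), 4.33 in TKO vehicle (SE 0.98, limma adjusted p = 0.0252) and 2.93 in DKO_EP (SE 0.83, limma adjusted p = 0.187). The next gene on the other side, Pabpc4l, is 1006574 bases away and stood at 1.19 (SE 0.68). The annotated genes do not overlap, and whether the authors counted by strand is not given in the sources used here.

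Around Slc38a11, 4 of 10 neighbours rose in castrated DKO_EE and 3 in TKO vehicle, but not the nearest ones. Fign, which encodes a microtubule-severing enzyme, rose by 4.40 in DKO_EE (SE 0.47, limma adjusted p = 0.000213) and by 2.43 in TKO vehicle (SE 0.46, limma adjusted p = 0.00523). In castrated DKO_EP it was at -1.67 (SE 0.47, limma adjusted p = 0.185), the opposite sign from Slc38a11. Scn1a, a neuronal sodium channel gene, rose by 4.0 (SE 0.57, limma adjusted p = 0.00168) and 4.71 (SE 0.93, limma adjusted p = 0.00712), and Grb14, an adaptor that binds the insulin receptor, by 1.79 (SE 0.38, limma adjusted p = 0.0146) and 2.14 (SE 0.47, limma adjusted p = 0.0220). Csrnp3 rose by 4.39 in DKO_EE (SE 0.75, limma adjusted p = 0.00461). Between them and Slc38a11 lay Cobll1, 77027 bases away, at -0.03 (SE 0.21), and Scn3a, 93084 bases away, at 1.51 (SE 1.12).

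The remaining neighbours showed little. Steap2, whose annotated end is 590 bases from Cfap69, stood at 0.72 (SE 0.62), and Fzd1, the fifth gene on the other side of Cfap69, fell by 2.31 (SE 0.42, limma adjusted p = 0.00629). Emp3 and Abcc6 beside Ccdc114 stood at -0.39 (SE 0.30) and 0.03 (SE 0.70). Hs3st4 beside Zkscan2 stood at -2.43 (SE 1.09, limma adjusted p = 0.186), and Aqp8 on its other side had no value in that fit. Rcor1 and Amn beside Traf3 stood at 0.19 (SE 0.13) and -0.78 (SE 0.64).

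**Figure D4:**
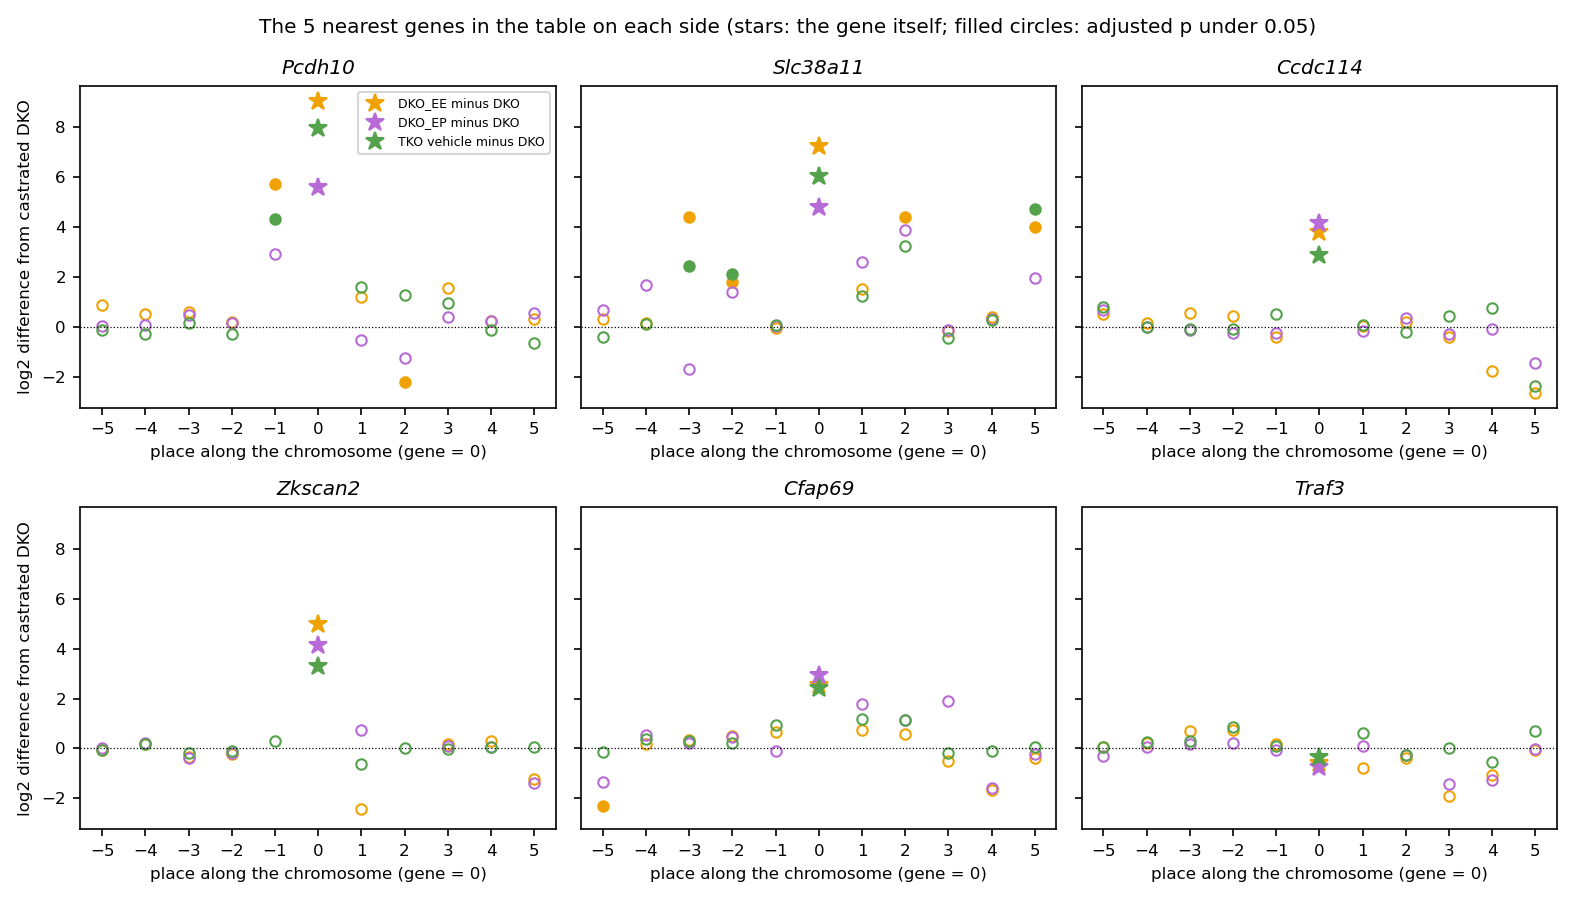
Log2 difference from castrated DKO of the 5 nearest measured genes on each side of the 6 genes, by place along the chromosome, with the gene itself as a star at 0 and filled circles at a limma adjusted p under 0.05. Only Pcdh10 has a called gene directly beside it (2610316D01Rik), while Ccdc114, Zkscan2 and Traf3 stand alone.

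Across all 48 animals the members kept company to different degrees. These are Pearson correlations of log2 levels, given as descriptions: the points share groups, and neuroendocrine content and depth differ among them. The 48 animals include those whose values chose the genes. Likeness among the 5 low genes, and the opposite sign of Traf3, are therefore partly built in by the choice. Pcdh10 and Slc38a11 were most alike (r = 0.85), and Zkscan2 followed both (r = 0.80 with Pcdh10 and 0.79 with Slc38a11). Ccdc114 had r = 0.56 with Cfap69, the other cilium gene, and 0.67 with Zkscan2. Traf3 was negative with all 5, from -0.32 with Cfap69 to -0.63 with Zkscan2. Ranked against 12228 genes, Pcdh10 was the gene most like Slc38a11, and Slc38a11 the one most like Pcdh10. Fam171b (r = 0.82) and Sgip1 (r = 0.82) came next for Pcdh10, and Cacna2d3 (r = 0.85) and Pde8b (r = 0.83) for Slc38a11.

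Zkscan2 had the closest companions of any member, Fam169a (r = 0.94), Trpc1 (r = 0.94) and Nova1 (r = 0.93), and Nova1 encodes a neuronal splicing factor. Means in castrated DKO and castrated DKO_EE were 5.33 and 8.33 for Fam169a, 6.38 and 8.34 for Trpc1 and 7.41 and 9.77 for Nova1. Those of Zkscan2 were 3.63 and 8.63. Zkscan2 was chosen by such a difference and its companions were not, so nothing is read from the contrast. Ccdc114 was most like the homeobox genes Hoxd9 (r = 0.71) and Hoxd8 (r = 0.71), then Kcnk10 (r = 0.68). Cfap69 had the loosest companions, Cryz (r = 0.61), Il1rap (r = 0.57) and Ccdc114 (r = 0.56). Among the genes most like Traf3 were Elk4 (r = 0.83) and Myo18a (r = 0.82).

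Neuroendocrine sums were set beside the levels of the members over the whole series, as a description. Low sums went with low Zkscan2, as in the 12-week animals, castrated DKO animal 2 and TKO vehicle animal 1. Within castrated DKO, animal 2 with the low sum had the lowest Zkscan2 (1.91), the lowest Slc38a11 (0) and no read of Pcdh10. Animal 3, with a high sum, also had no read of Pcdh10 and had 1 read of Slc38a11. Ccdc114 (2.70) and Cfap69 (4.61) were highest in animal 2. Castrated DKO animals 1, 3 and 4 had sums of 14.32 to 14.62, with Pcdh10 at 0 to 3.09, Slc38a11 at 1.28 to 2.71 and Ccdc114 at 2.25 to 2.44. Their Zkscan2 of 3.72 to 4.48 lay below the 5.91 of the lowest intact endstage animal of any genotype. Leaving out animal 2 moved the castrated DKO means to 2.01 for Pcdh10, 2.08 for Slc38a11, 2.37 for Ccdc114, 4.20 for Zkscan2, 2.62 for Cfap69 and 9.71 for Traf3. The median difference of the 12 markers from castrated DKO, animal 2 included, was 2.15 in castrated DKO_EE, 2.36 in castrated DKO_EP and 1.08 in TKO vehicle. Other tissue differed: 5 of 8 fibroblast markers and 2 of 6 T and NK cell markers were lower in castrated DKO_EE than in castrated DKO. The summed basal markers were 15.90 in castrated DKO animal 2, 12.31 to 12.60 in animals 1, 3 and 4, and 10.45 to 11.57 in castrated DKO_EE. Animal 2 also had a summed seminal vesicle level of 10.13, against 0 to 1.17 in animals 1, 3 and 4. The part of neuroendocrine content and of these other cell types in the values of the 6 genes was not tested.

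**Figure D5:**
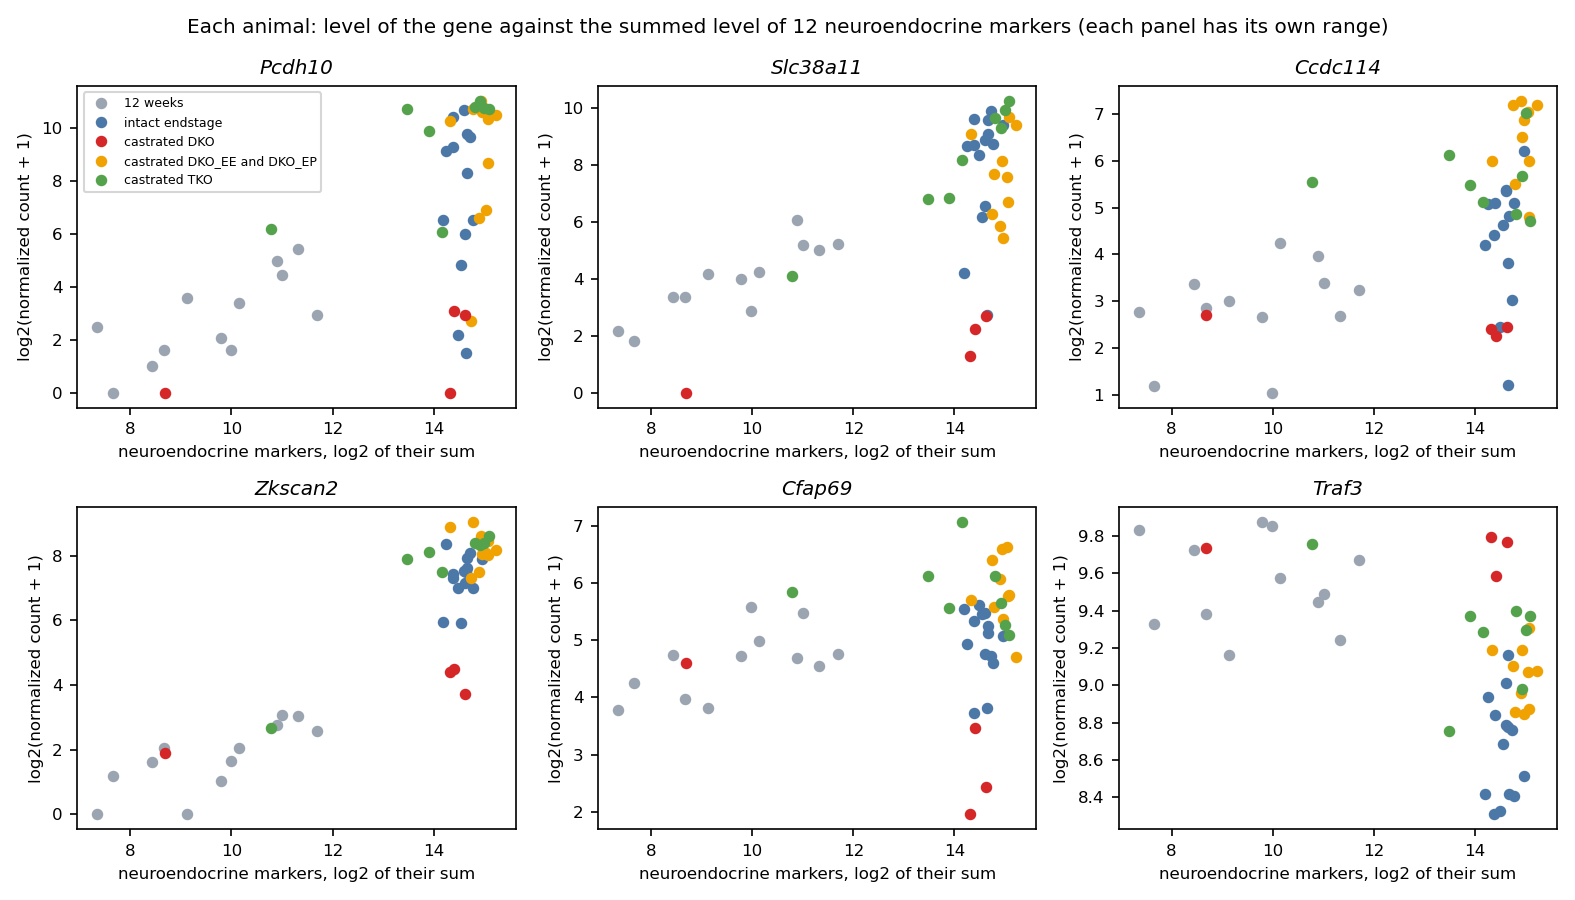
Level of each gene, as log2(normalized count + 1), against the log2 of the summed normalized counts of 12 neuroendocrine markers in each of the 48 animals, with castrated DKO in red; each panel has its own range. Castrated DKO animals 1, 3 and 4 (sums of 14.32 to 14.62) lie under the other endstage animals of like sum for Slc38a11 and Zkscan2 and above them for Traf3, and animal 2 (8.68) has a sum within the 12-week range, with Slc38a11 (0) below every 12-week animal.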

How the data were processed

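Bulk RNA sequencing of prostate tumours was done in 54 libraries from 48 mice in 11 groups. Total RNA was extracted with a miRNeasy kit and libraries were made after ribosomal RNA depletion, per the labels' protocols. The deposited values are log2 of a normalized count plus 1, which the authors computed per gene; the submitters' processing notes list FastQC, STAR, RSEM, limma and DESeq2 and the builds GRCm38 and mm10, and whether reads were counted by strand is not given in the sources used here. The table held 56 columns, and 2 of no sample were not used. All values (100.0%) came out as whole reads within 0.05 once the scaling of each library was undone, 8.923% of them were 0, and libraries held 3687048 to 9741808 reads. Intervals for counting error are not given, since the spread between animals includes it.

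R 4.3.3 and limma 3.58.1 (eBayes with trend) gave the differences from the deposited values, pieces of an animal averaged, with Benjamini-Hochberg adjustment over all genes with any spread and calls at an adjusted p under 0.05, two-sided; the procedure was tested on simulated data. Adjusted p-values rest on the spread between these animals. The test of AP against DP pieces had a term for each animal. Tables and figures were made with Python 3.11.15, numpy 2.4.6, pandas 2.3.3, scipy 1.17.1 and matplotlib 3.10.9. Positions are from GENCODE M21 (GRCm38) and promoters from RefSeq (GRCm38.p6), where all 6 genes matched. The members and all lists were chosen with earlier results of these data known. Named relatives were, for each list, up to 4 called genes of smallest adjusted p and the closest by function, then nearest and called neighbours (5 on each side) and the 3 genes of highest correlation, of which 1 is not reported here. Remaining called genes of a list are named after their values were seen, to complete a count. CpG was counted after the promoters had been read, and a search for 3 transcription factor motifs, also chosen after reading them, is not reported. Alternatives were another offset, quantile normalization, a filter on low genes, age as a covariate, all groups in one fit, the first piece of each animal, libraries with little Lars2, each animal left out in turn and, chosen after seeing the data, limma-voom on the recovered reads.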

Additional observations from a re-analysis of the deposited data

Results flagged for a closer look

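Of 54 combinations of a gene and a group with 4 to 10 animals, 4 had 1 animal far from the others, with a gap to the nearest animal that was past Dixon's 95% critical value; chance alone gives about 1 in 20. Pcdh10 stood at 6.07 in CPI1688 animal 3, with a gap of 0.984 of the group's range. Zkscan2 stood at 2.67 in TKO vehicle animal 1, with a gap of 0.920 of the range. Ccdc114 stood at 4.79 in castrated DKO_EP animal 3, with a gap of 0.835 of the range. Cfap69 stood at 3.74 in intact DKO_EE animal 1, with a gap of 0.567 of the range. Each was the lowest animal of its group.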

How the results depend on the processing

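Counts of called genes changed with the fit. With all 11 groups in one fit they were 84 for DKO_EE against DKO at 12 weeks, 4 for DKO_EP against DKO, 1 for DKO_EE against DKO_EP and 3 for CPI1688 against vehicle, each 0 in the fits reported, and 45 instead of 5 for castrated DKO_EP against DKO. Quantile normalization gave 1 for DKO_EE against DKO_EP at 12 weeks. With age as a covariate the castrated counts were 454 instead of 1278 for DKO_EE, 0 for DKO_EP, 6 instead of 95 for TKO vehicle and 1472 instead of 2338 for castrated against intact DKO. With an offset of 8 the DKO_EP count was 14, the DKO_EE interaction with castration 1 instead of 2 and the DKO_EP interaction 2 instead of 4. With limma-voom they were 2 for DKO_EP, 36 for TKO vehicle and 0 for the DKO_EP interaction. The first library of each animal gave 1 and 0 for the interactions, and leaving out the lowest 25% of genes gave 4 for DKO_EE. The cause was not tested.

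Leaving out 1 animal gave 0 to 5 calls for DKO_EE and for DKO_EP against DKO at 12 weeks, the 5 without DKO animal 4. Castrated DKO_EE against DKO ranged from 780 (without DKO_EE animal 1) to 1796 (without DKO animal 3), DKO_EP from 4 to 67 (without DKO animal 3), TKO vehicle from 34 (without TKO animal 4) to 276 (without TKO animal 1), and each interaction from 0 to 4.

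No value of the 6 genes in the comparisons that chose them, or in castrated against intact DKO, changed sign under these alternatives: 549 moved by less than the spread and 21 by more. Among uncalled differences, Slc38a11 between DKO_EE and DKO at 12 weeks was 0.11 with quantile normalization and 0.11 with limma-voom, Zkscan2 between DKO_EP and DKO at 12 weeks -0.094 with an offset of 8, and Cfap69 between pieces -0.011 with quantile normalization. Leaving out 1 animal, the 12-week DKO_EE against DKO range was -0.75 to 0.55 for Slc38a11, -0.16 to 0.40 for Cfap69 and -0.052 to 0.18 for Traf3, and Zkscan2 in DKO_EP against DKO -0.32 to 0.70. DKO_EE against DKO_EP ranged from -0.072 to 0.99 for Ccdc114 and -0.19 to 0.022 for Traf3. CPI1688 against vehicle ranged from -0.96 to 1.30 for Pcdh10, -0.16 to 1.90 for Slc38a11 and -0.31 to 1.66 for Zkscan2. Between pieces, Pcdh10 ranged from -0.22 to 2.29, Cfap69 from -0.24 to 0.26 and Traf3 from -0.15 to 0.0043.

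A count model on the recovered reads was planned and not run. Leaving out libraries with Lars2 over 10% of reads left no intact DKO_EP animal, so that interaction has no such value. No paired analysis was possible because replicate numbers only name animals in these groups; the test of pieces alone had a block for the animal. Levels in castrated DKO rest on 0 to 17 reads for all but Traf3, and differences among such levels are not resolved at this depth.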
